A study of Mus musculus with 12 samples.

Results

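Sterol regulatory element-binding proteins (SREBPs) are membrane-bound transcription factors whose release from the endoplasmic reticulum is set by sterols, and the genes of this control circuit and of cholesterol movement inside the cell were examined here in thymol-treated primary mouse adult fibroblasts (MAFs). The group was set by name: the 9 genes *Srebf1*, *Srebf2*, *Scap*, *Insig1*, *Insig2*, *Mbtps1*, *Stard4*, *Npc1* and *Npc2*, all 9 of which were among the 10697 genes of the expression table. The names were not chosen by a cutoff on measured values, but earlier results of these data were known. MAFs grown out of tissue pieces of wild-type C57BL6/j mice received 100 µM thymol, a plant monoterpene phenol, dissolved in DMSO, for 24 h, and the control cells received the same volume of DMSO. Each group held 6 libraries, numbered 1 to 6, with no other genotype, dose or time. The age of the animals and the number of cultures behind the libraries were not given, so the p-values measure the spread between these libraries, which may be technical.

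Transcripts were measured by QuantSeq, a method that sequences only the 3′ ends of mRNAs, and its read number follows the number of transcripts and not their length. Values are log2 CPM, the logarithm of counts scaled to a common library size, and levels of different genes can therefore be set side by side. The 12 libraries held 5435985 to 9049796 reads over the listed genes, from 6240828 to 8064382 with DMSO and from 5435985 to 9049796 with thymol. The labelled cell type was checked against markers. Of 15 fibroblast markers, 13 were in the table, all but *Lum* and *Fap*, and their summed level was 12676 to 13988 CPM with DMSO and 12071 to 12718 CPM with thymol. All 15 macrophage markers were in the table too, at 17546 to 19244 CPM with DMSO and 17758 to 21333 CPM with thymol, in cells labelled as fibroblasts. The macrophage sum was above the fibroblast sum. Most of it was *Lyz2*, at 12067 to 13508 CPM with DMSO, and the other 14 markers summed to 5479 to 5737 CPM. No marker was left out of the fibroblast sum in the same way. The values below are those of the whole culture, in which fewer cells of a type and less RNA per cell cannot be told apart.

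SREBP-1, encoded by *Srebf1*, chiefly drives genes of fatty acid synthesis, and SREBP-2, encoded by *Srebf2*, chiefly drives genes of cholesterol synthesis and uptake. Both are held in the endoplasmic reticulum by the escort protein SCAP and the anchors INSIG1 and INSIG2 while sterols are plentiful. When sterols fall, SCAP carries them to the Golgi, where the site-1 protease, encoded by *Mbtps1*, makes the first of the cuts that free the active factor. *Insig1* and *Srebf2* are themselves SREBP targets, so that the circuit feeds back on itself. Cholesterol that arrives by endocytosis leaves the lysosome through NPC2, which binds it in the lumen, and NPC1, which passes it to the membrane, and STARD4 carries sterol between membranes in the cytosol. Transcript levels do not measure the cleavage or movement of these proteins.

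*Insig1* fell by 36.3% with thymol and was the 1 of 9 genes (11.1%) past an adjusted p-value of 0.05 in limma, against 238 of 10697 genes (2.22%) in the table as a whole and 168 (1.57%) in the lower direction. Without thymol replicate 2 its log2 fold change was −0.47 and it did not pass (adjusted p = 0.141 in limma). *Srebf2*, *Srebf1* and *Stard4* had fitted log2 fold changes between −0.28 and −0.23 that did not pass. *Insig2*, *Scap*, *Mbtps1*, *Npc1* and *Npc2* had fitted values between −0.054 and 0.19, with intervals that all included 0. In all, 6 of the 9 fitted values were below 0 and 3 were above it, with a median of −0.054, where the median of all genes was 0.0026.

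The promoters of *Insig1*, of its paralogue *Insig2* and of *Srebf2* are shown because the results turn on *Insig1*, on its difference from *Insig2*, and on the factor that acts on both the sterol genes and itself. Each line gives the 250 bases before a RefSeq transcript start on GRCm38.p6, in the direction of transcription, with matches to 4 searched motifs in capitals. *Insig1* is at chr5:28071162-28071411 on the plus strand, *Insig2* (the first of its 3 annotated starts) at chr1:121332590-121332839 on the minus strand, and *Srebf2* at chr15:82147019-82147268 on the plus strand. GENCODE, the source of the gene positions below, starts *Insig1* at 28071363 and *Srebf2* at 82147181. By that annotation the last bases of these 2 lines are transcribed.
Insig1: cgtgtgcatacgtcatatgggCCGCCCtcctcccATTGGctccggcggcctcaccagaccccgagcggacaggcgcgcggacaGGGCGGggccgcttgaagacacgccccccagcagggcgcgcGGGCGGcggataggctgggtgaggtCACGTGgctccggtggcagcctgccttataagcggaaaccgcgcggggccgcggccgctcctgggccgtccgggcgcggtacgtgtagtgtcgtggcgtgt
Insig2: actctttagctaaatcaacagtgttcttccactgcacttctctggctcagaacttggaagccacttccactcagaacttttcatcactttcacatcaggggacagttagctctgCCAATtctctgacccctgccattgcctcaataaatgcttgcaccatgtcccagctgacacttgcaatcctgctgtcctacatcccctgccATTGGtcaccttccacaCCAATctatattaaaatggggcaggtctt
Srebf2: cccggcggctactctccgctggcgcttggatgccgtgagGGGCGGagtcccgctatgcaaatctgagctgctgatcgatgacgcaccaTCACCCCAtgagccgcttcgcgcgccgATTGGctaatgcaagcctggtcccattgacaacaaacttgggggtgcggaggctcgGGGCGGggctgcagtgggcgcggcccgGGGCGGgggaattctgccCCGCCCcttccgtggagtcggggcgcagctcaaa

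The capitals mark the E-box CACGTG, the CCAAT box CCAAT, the GC box GGGCGG and the short sterol regulatory element form TCACNCCA, on either strand, so that ATTGG is a CCAAT box and CCGCCC a GC box on the other strand. In the *Insig1* window an E-box began at position −101 from the start, a CCAAT box at −216 and GC boxes at −229, −167 and −126. The *Insig2* window had 3 CCAAT boxes, at −136, −46 and −29, and no E-box or GC box, and the other 2 *Insig2* windows had 1 GC box each. Reads at the 3′ end do not show which *Insig2* start these cells used. The *Srebf2* window had TCACCCCA at −162 and a CCAAT box at −135, with GC boxes at −211, −79, −52 and −34.

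Among the 9 genes, 7 had entries in the promoter table, with 12 windows of 300 bases (250 before and 50 after each start), and *Stard4* and *Npc1* had none. For 9 of the 12 windows the bases after the start matched an annotated transcript. The full sterol regulatory element TCACNCCAC was in 0 of the 12 windows and in 119 of 10983 windows (1.08%) of genes in the expression table. The shorter TCACNCCA, chosen after the windows had been read and contained in every full match, was in 1 of 12 windows, that of *Srebf2*, and in 3.62% of the 10983. Among the windows of 16 sterol synthesis genes, the full element was in 1 of 19, that of *Hmgcs1*, and the shorter form also in that of *Msmo1*.

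The commoner motifs were spread over the group. An E-box, which reads the same on both strands, was in 3 of 12 windows, against 10.1% of the windows of genes in the table. These were the windows of *Insig1* and of both starts of *Scap*, which overlap and hold the same E-box. By gene it was in 2 of 7, against 12.1% of the genes in the table. CCAAT boxes were in 6 of 12 windows against 37.3%, and in 15 of 19 windows (78.9%) of sterol synthesis genes. GC boxes were in 10 of 12 windows against 64.3%. A match describes letters in a window and is no evidence that a factor binds there.

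**Figure D1:**
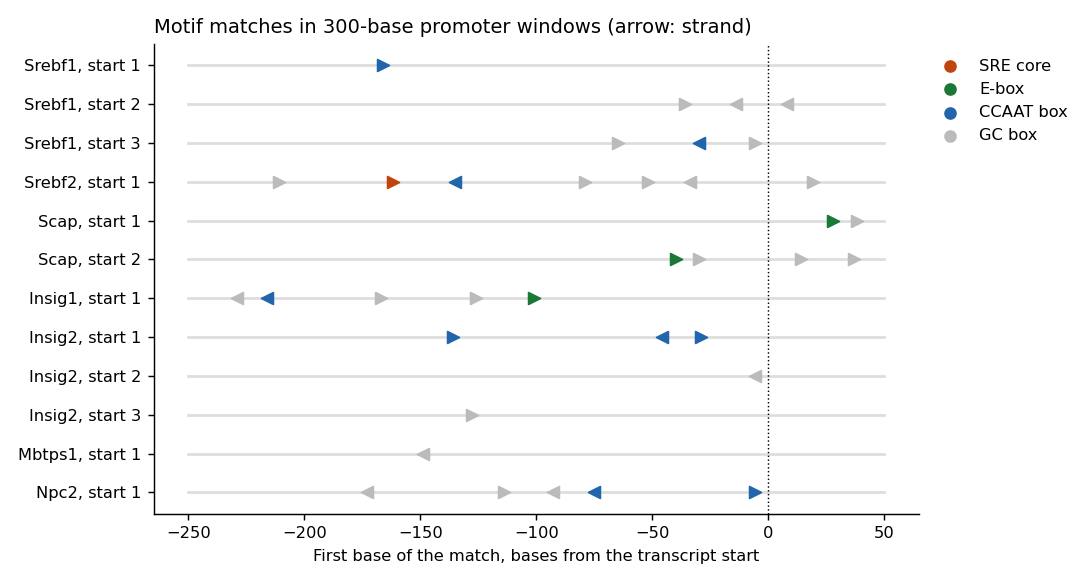
Position of motif matches in the 12 promoter windows of 7 genes; the x axis gives the first base of the match in bases from the transcript start, each line is 1 window, and the arrow points right for a match on the transcribed direction and left for the other strand. *Insig1* and *Scap* hold an E-box, *Srebf2* holds the short sterol regulatory element form, and no *Insig2* window holds an E-box.

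The expression levels of the 9 genes covered a wide range. *Npc2* stood highest with DMSO at 10.14 log2 CPM (1125 CPM), and its mean over all 12 libraries was above 99.3% of the genes in the table. *Srebf2*, *Mbtps1* and *Npc1* followed closely at 7.07, 7.04 and 7.00 log2 CPM, and neighbours among these 3 overlapped between libraries. *Scap* at 5.95 log2 CPM overlapped neither *Npc1* above it nor *Stard4* below it.

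*Stard4* (5.23), *Insig2* (5.04), *Srebf1* (4.64) and *Insig1* (4.37 log2 CPM) closed the order, and each of these overlapped the next. *Insig1* was thus the gene of lowest level, and its mean over all 12 libraries, thymol included, was above 29.3% of all genes. With thymol *Npc2* remained highest and *Insig1* lowest, while *Srebf2* stood after *Npc1* and *Mbtps1*, and *Stard4* after *Insig2*. A DMSO library held on average 7957 reads of *Npc2* and 145 of *Insig1*, so the relative counting error of *Insig1* was the largest of the group.

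**Figure D2:**
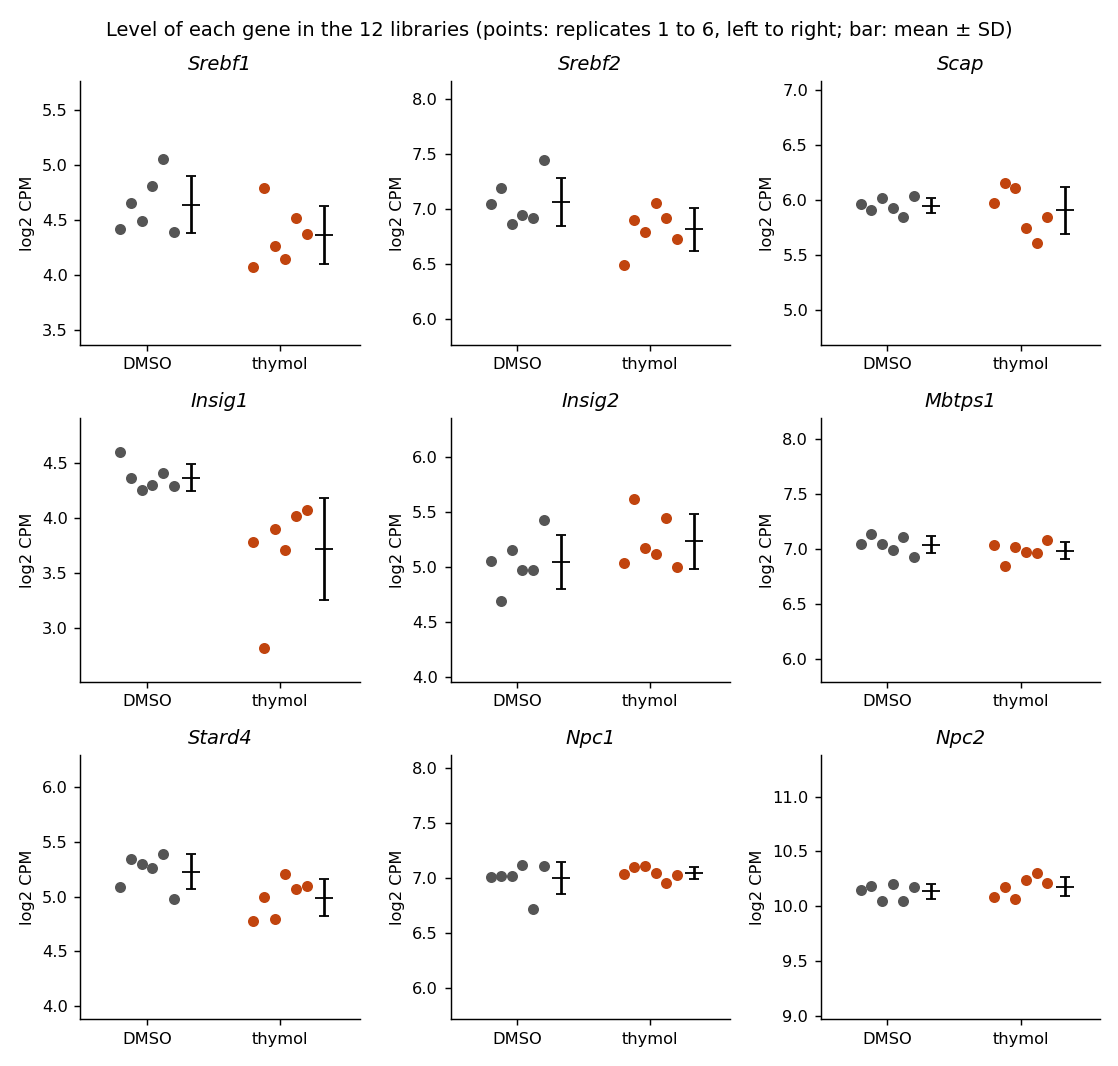
Level of each of the 9 genes in every library (y axis, log2 CPM, with the same span of values in each panel but different limits); each point is 1 library, grey for DMSO and orange for thymol, and the bar is the mean ± SD of 6 libraries. The 6 thymol values of *Insig1* lie below its 6 DMSO values, and in the other 8 genes the groups overlap.

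The first question was whether the transcription factors themselves changed. *Srebf2* lies on chromosome 15 (GRCm38 82147181 to 82205379, plus strand). With DMSO its level ranged from 6.86 to 7.45 log2 CPM with a median of 7.00, and with thymol from 6.49 to 7.06 with a median of 6.85. The groups overlapped, with 3 of 6 thymol libraries below every DMSO library. The mean went from 7.07 ± 0.22 to 6.82 ± 0.20 (SD, n = 6 each). The log2 fold change was −0.25 ± 0.084 (SE) with an adjusted p-value of 0.112 in limma, and without thymol replicate 4 it was −0.30 with an adjusted p of 0.043. The 95% confidence interval of the thymol to DMSO ratio, 0.747 to 0.943, lay below 1, since it is not adjusted for the number of genes tested.

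*Srebf1* lies on chromosome 11 (60199089 to 60222581, minus strand). Its level was 4.39 to 5.06 log2 CPM with DMSO (median 4.57) and 4.07 to 4.79 with thymol (median 4.32). In 4 of 6 thymol libraries it was below every DMSO library, but thymol replicate 2 was higher than 4 of the 6 DMSO libraries. The means were 4.64 ± 0.26 and 4.36 ± 0.26 (SD, n = 6 each), with a log2 fold change of −0.28 ± 0.15 and an adjusted p-value of 0.472 in limma. Reads at the 3′ end cannot tell apart the forms of *Srebf1* that differ in their first exon, since 2 of its 3 annotated coding transcripts share a 3′ end. The gene also overlaps *Rai1* on the opposite strand, whose log2 fold change was −0.12 ± 0.13 (adjusted p = 0.806 in limma), and the strand setting of the counting was not given in the sources used here.

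Unequal change of the factors was not shown. *Srebf1* minus *Srebf2* within a library changed by −0.024 on the log2 scale (exact two-sided permutation test over 924 relabellings, p = 0.900, adjusted p = 0.965 over 5 pairs of genes). *Srebf2* was the more abundant transcript of the pair in both groups.

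The anchors behaved unequally. *Insig1* (chromosome 5, 28071363 to 28078662, plus strand) encodes the anchor whose own transcription depends on SREBPs. With DMSO its 6 libraries held 180, 141, 151, 129, 131 and 136 reads, or 4.60, 4.36, 4.25, 4.30, 4.41 and 4.29 log2 CPM in the order of their numbers. With thymol they held 87, 40, 94, 75, 145 and 90 reads, or 3.78, 2.82, 3.91, 3.71, 4.02 and 4.07 log2 CPM. All 6 thymol libraries were below all 6 DMSO libraries on the scaled values, and the 145 reads of thymol replicate 5 came from the deepest library. Over all genes, 124 (1.16%) were separated in this direction.

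The mean level of *Insig1* went from 4.37 ± 0.13 with DMSO to 3.72 ± 0.46 with thymol (SD, n = 6 each). The log2 fold change was −0.65 ± 0.18 (SE), with a ratio of 0.637 (95% confidence interval 0.499 to 0.813) and an adjusted p-value of 0.027 in limma. Thymol replicate 2, at 2.82, stood apart from the other 5 thymol libraries, and without it the log2 fold change was −0.47 with an adjusted p of 0.141. The adjusted p also rose above 0.05 without DMSO replicate 1, 2 or 5, to between 0.051 and 0.086. *Insig1* was 200th of 10697 genes by p-value, close to the edge of the 238, and of 11 fits that kept all libraries or a fixed subset of them, 8 kept it past the threshold.

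**Figure D3:**
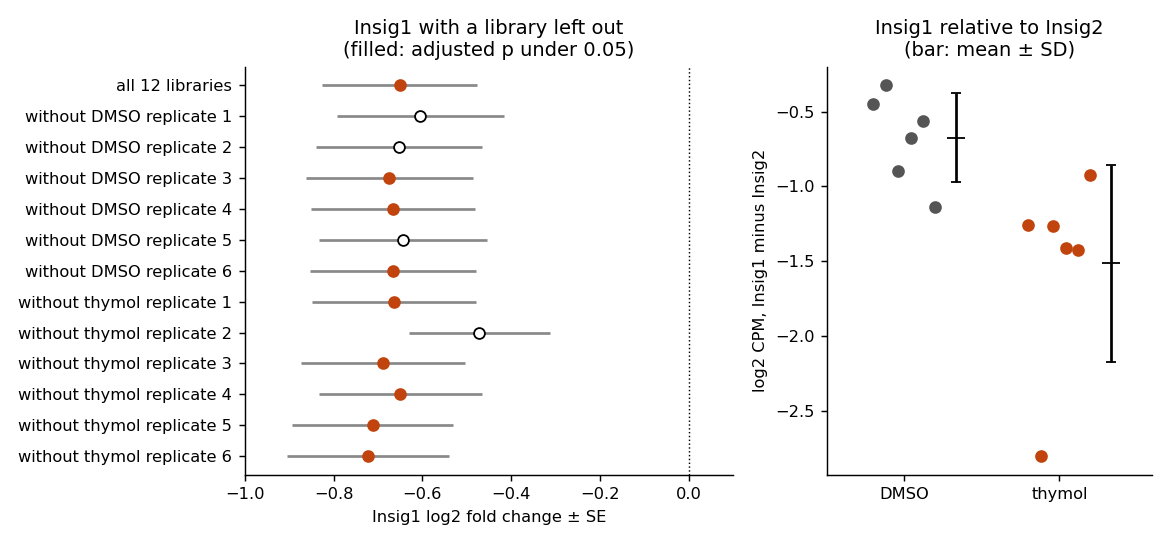
Left, log2 fold change of *Insig1* (thymol minus DMSO, point) with its standard error (line) with all libraries and with each left out, filled where the adjusted p is under 0.05; right, *Insig1* minus *Insig2* in each library (log2 CPM), with mean ± SD of 6 libraries. The value stays between −0.72 and −0.47 on the left, with 4 open points, and thymol replicate 2 lies lowest on the right at −2.80.

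*Insig2* (chromosome 1, 121304353 to 121332589, minus strand) encodes the paralogous anchor, whose transcription does not follow SREBP activity as that of *Insig1* does. Its level was 4.69 to 5.43 log2 CPM with DMSO (median 5.01) and 5.00 to 5.62 with thymol (median 5.14), with overlapping groups and 2 thymol libraries above every DMSO library. The means were 5.04 ± 0.24 and 5.23 ± 0.25 (SD, n = 6 each), and the log2 fold change was 0.19 ± 0.12 with an adjusted p of 0.611 in limma.

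The change of *Insig1* differed from that of *Insig2*. *Insig1* minus *Insig2* within a library went from −0.67 ± 0.30 with DMSO to −1.51 ± 0.66 with thymol (SD, n = 6 each), so that *Insig1* fell from 0.627 to 0.350 of the *Insig2* level. The shift of −0.84 had p = 0.00433 in the exact two-sided permutation test (adjusted p = 0.0217 over 5 pairs), although the groups overlapped, with ranges of −1.13 to −0.32 and −2.80 to −0.92. Without thymol replicate 2 the shift was −0.58 with an adjusted p of 0.0433, and without any 1 of DMSO replicates 1 to 5 the adjusted p was 0.0541.

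*Scap* (chromosome 9, 110333288 to 110384950, plus strand) encodes the escort on which the anchors act. Its level was 5.85 to 6.03 log2 CPM with DMSO (median 5.94) and 5.61 to 6.15 with thymol (median 5.90), so that the thymol libraries lay on both sides of the DMSO libraries, 3 below them all and 2 above. The means were 5.95 ± 0.070 and 5.90 ± 0.21 (SD, n = 6 each), with a log2 fold change of −0.043 ± 0.093 (adjusted p = 0.931 in limma) and a 95% confidence interval of the ratio from 0.853 to 1.10.

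The abundance of *Scap* relative to *Insig1* was higher with thymol. *Scap* minus *Insig1* went from 1.58 ± 0.16 to 2.18 ± 0.61 (SD, n = 6 each), a shift of 0.61 (exact two-sided permutation test, p = 0.0152, adjusted p = 0.0379 over 5 pairs). The ranges, 1.36 to 1.76 with DMSO and 1.58 to 3.33 with thymol, overlapped, and without thymol replicate 2 the shift was 0.38 with an adjusted p of 0.0649. Without any 1 of DMSO replicates 1 to 5 the adjusted p was 0.0541 to 0.0920. This pair and the preceding one share *Insig1* and are not independent of each other or of its own change.

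*Mbtps1* (chromosome 8, 119508156 to 119558735, minus strand), the site-1 protease, varied little between libraries. It was at 6.93 to 7.14 log2 CPM with DMSO (median 7.05) and at 6.85 to 7.08 with thymol (median 7.00), and 1 thymol library was below every DMSO library. The means were 7.04 ± 0.077 and 6.99 ± 0.079 (SD, n = 6 each), with a log2 fold change of −0.054 ± 0.067 (adjusted p = 0.844 in limma) and a ratio interval of 0.877 to 1.06.

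The next question was whether the carriers of endocytosed and cytosolic cholesterol changed. *Npc1* (chromosome 18, 12189692 to 12236400, minus strand) was at 6.72 to 7.11 log2 CPM with DMSO (median 7.02) and 6.95 to 7.11 with thymol (median 7.04). Every thymol value lay inside the DMSO range. The means were 7.00 ± 0.14 and 7.04 ± 0.058 (SD, n = 6 each), and the log2 fold change was 0.047 ± 0.070 with an adjusted p of 0.883 in limma and a ratio interval of 0.938 to 1.14. *Npc1* overlaps *Rmc1* on the opposite strand, whose log2 fold change was −0.25 ± 0.20 (adjusted p = 0.709 in limma).

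*Npc2* (chromosome 12, 84754562 to 84773152, minus strand), the soluble partner of NPC1, was measured most precisely. Its level was 10.05 to 10.20 log2 CPM with DMSO (median 10.17) and 10.07 to 10.30 with thymol (median 10.19), with 3 thymol libraries above every DMSO library. The means were 10.14 ± 0.068 and 10.18 ± 0.090 (SD, n = 6 each), with a log2 fold change of 0.044 ± 0.048 (adjusted p = 0.816 in limma) and a ratio interval of 0.965 to 1.10, the narrowest of the 9. *Npc1* minus *Npc2* shifted by 0.0035 on the log2 scale (exact permutation test, adjusted p = 0.965 over 5 pairs).

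*Stard4* (chromosome 18, 33199355 to 33213862, minus strand), the cytosolic carrier and itself an SREBP-2 target, was at 4.98 to 5.39 log2 CPM with DMSO (median 5.28) and 4.78 to 5.20 with thymol (median 5.03). The groups overlapped, with 2 thymol libraries below every DMSO library. The means were 5.23 ± 0.16 and 4.99 ± 0.17 (SD, n = 6 each), and the log2 fold change was −0.23 ± 0.11 with an unadjusted p of 0.0459 and an adjusted p of 0.411 in limma. *Stard4* minus *Npc1* shifted by −0.28 (exact permutation test, p = 0.0693, adjusted p = 0.115 over 5 pairs), and it passed only without DMSO replicate 6 (−0.35, adjusted p = 0.0433).

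**Figure D4:**
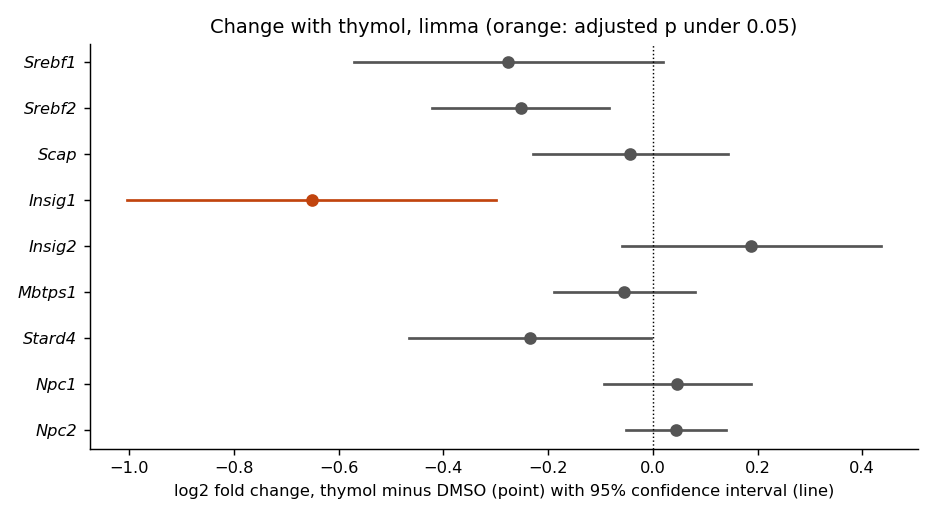
Log2 fold change of each of the 9 genes, thymol minus DMSO (x axis, point), with its 95% confidence interval (line), from limma over all genes. The interval of *Insig1* ends at −0.30 and is the only orange one, and those of *Srebf2* and *Stard4* also lie below 0 without passing the adjusted threshold.

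The wider circuit was read from lists of named genes. Of 25 further genes of SREBP control, such as coat proteins, the sterol sensors of the ER and the regulators of SREBP stability, 24 were in the table and 0 passed in limma in either direction (1 had an unadjusted p under 0.05). They divided into 14 above and 10 below 0, with a median of 0.0056 and extremes of −0.34 (*Nr1h3*, the sterol-activated receptor LXRα) and 0.27 (*Sec23b*, a COPII coat subunit), both named for being the extremes. Over all genes 2.22% passed, and a count of 0 in 24 genes cannot be told apart from that share. An unadjusted p under 0.05 was found in 1261 of the 10697 genes.

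The genes that SREBPs drive held more calls. All lists were chosen with earlier results of these data known, so the contrast between them is a description only. Of 21 sterol synthesis genes 20 were in the table, and 11 passed as lower (55.0%, against 1.57% of all genes) and 0 as higher. In all, 19 of 20 fitted values were below 0, with a median of −0.41. The 4 with the smallest p-values were *Hmgcs1*, the synthase before the rate-limiting step (−0.48 ± 0.065, adjusted p = 8.6e-07 in limma), and *Hsd17b7* (−0.45), *Msmo1* (−0.39) and *Nsdhl* (−0.70), which act on the sterol ring late in the pathway. The fitted change of *Insig1* (−0.65) lay within the range of these genes, and those of *Srebf2* and *Stard4* (−0.25 and −0.23) lay above their median.

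Of 14 fatty acid synthesis genes 13 were in the table and 3 passed (23.1%, against 2.22% of all genes). All 3 were lower: *Scd2* (−0.64) and the desaturases *Fads2* (−0.60) and *Fads1* (−0.34). *Scd2*, also a desaturase, had a standard error of 0.071 against the 0.18 of *Insig1*. The median of this list was −0.18, with 12 of 13 fitted values below 0.

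The genes for bringing lipoprotein cholesterol into the cell and moving it on had medians near that of all genes. Among 11 lipoprotein receptors and endocytic adaptors, all in the table, 1 passed (9.09%, against 2.22% of all genes). It was the adaptor *Dab2*, at −0.18 (9.27 to 9.09 log2 CPM, adjusted p = 0.048 in limma). The median of these 11 was 0.020, with 6 above and 5 below 0. Of 26 further genes of intracellular cholesterol transport and esterification, 24 were in the table and 0 passed in limma. This 0 of 24 cannot be told apart from the 2.22% of all genes. An unadjusted p under 0.05 was found in 5 of the 24, against 1261 of 10697 genes. Their median was 0.049, with 16 above 0. *Osbpl9*, an oxysterol-binding protein relative, was below every DMSO library in all 6 thymol libraries, with a fitted value of −0.26 (adjusted p = 0.060 in limma), and *Soat1*, which esterifies cholesterol, had a fitted value of 0.18 (adjusted p = 0.151 in limma), both chosen after their values were seen.

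**Figure D5:**
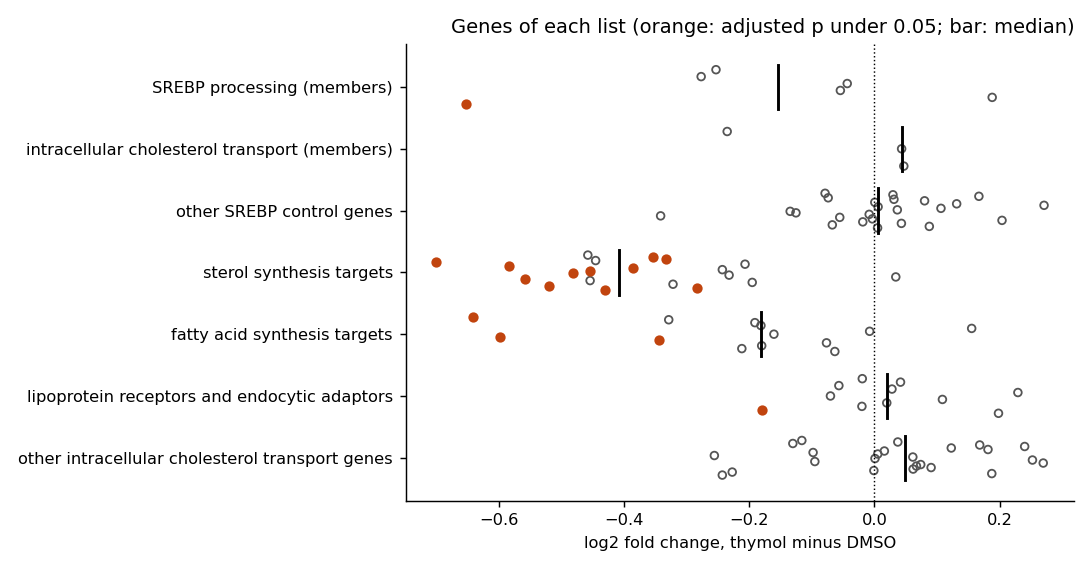
Log2 fold change (x axis, thymol minus DMSO) of every gene of 7 lists, filled orange where the adjusted p in limma is under 0.05, with the median of each list as a bar. The 20 sterol synthesis genes centre on −0.41 with 11 filled points, whereas the 24 other SREBP control genes centre on 0.0056 with none.

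Cell type markers also differed between the groups. The summed fibroblast markers changed by −0.098 on the log2 scale (exact two-sided permutation test, p = 0.00433, n = 6 each). Of the 13, *Col3a1* and *Col1a1* passed as lower and 0 as higher (15.4%, against 2.22% of all genes). The fitted values were mixed, with 5 above 0, 8 below and a median of −0.12, and the sum weighs the most abundant markers most. The summed macrophage markers changed by 0.065 (exact permutation test, p = 0.145, n = 6 each), and by 0.029 without *Lyz2*, a value chosen after the data were seen (exact permutation test, p = 0.273, n = 6 each). Of the 15, *Ctss* passed as higher (0.26) and *Itgam* as lower (−0.31), which is 13.3% against 2.22% of all genes. Among these 15 fitted values 9 were below 0, with a median of −0.029. Of 10 markers of endothelial, epithelial, muscle and fat cells, 3 were in the table, with sums of 137 to 165 CPM with DMSO and 97.1 to 129 CPM with thymol that did not overlap. This sum changed by −0.43 (exact permutation test, p = 0.00216, the smallest these relabellings can give, n = 6 each), and most of it was *Acta1*, a skeletal muscle actin, which passed as lower (−0.45, adjusted p = 5.0e-05 in limma). *Des* and *Cdh5* together, at 6.83 to 15.7 CPM, changed by −0.27 (exact permutation test, p = 0.286, n = 6 each). Of these 3 markers 1 passed (33.3%, against 2.22% of all genes). The part of these shifts in the change of *Insig1* was not tested.

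Variation between libraries within a group was also compared, after the mean of each group was subtracted. For each of the 9 genes the most alike gene among about 5393 genes with a mean of at least 5 log2 CPM had a Pearson correlation of 0.86 to 0.94 over the 12 libraries, which share their depth and scaling with every gene. *Srebf2* varied most like *Rnd3* (0.94) and *Spcs2* (0.91), *Srebf1* like *Tars* (0.90) and *Skap2* (0.89), and *Scap* like *Zc3hav1* and *Purb* (0.86 each). *Insig1* varied most like *Yeats4* (0.91) and *Ccn5* (0.86), *Insig2* like *Degs1* (0.90) and *Gbf1* (0.85), and *Mbtps1* like *Ptpn7* (0.88) and *Fam120b* (0.87). *Stard4* varied most like *Vapa* (0.88) and *Map4k4* (0.83), *Npc1* like *Inpp5d* (0.92) and *Kif1c* (0.86), and *Npc2* like *Dpysl2* (0.92) and *Lrp12* (0.89). Each is the best of all genes compared and is given as a description.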

How the data were processed

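Libraries were made with the QuantSeq 3′ kit. Reads were aligned to GRCm38 with STAR 2.5.3 and counted with HTSeq 0.6.1, per the submitters' processing notes. The deposited table held log2 CPM on library totals that the authors had scaled by the trimmed mean of M-values, after removing genes with few reads. The steps between low values gave the whole reads behind them (100% of values under 200 reads within 0.02 of a whole number), with a prior of 1.96 reads in an average library, which pulls the fold changes of low genes such as *Insig1* towards 0. Reads are PCR products, so read numbers speak of counting error only.

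The log2 values of all 12 libraries were compared with limma 3.58.1 in R 4.3.3 (lmFit, eBayes with a mean-variance trend, no covariate, two-sided, Benjamini-Hochberg over 10697 genes, threshold 0.05). Pairs of genes were compared by exact permutation of within-library differences, whose smallest p is 0.00216. Named genes are the 9 by name, the 2 most alike genes of each, and up to 4 genes with the smallest p-values past the threshold in each list. Genes named outside this rule are overlapping neighbours, or are said to be extremes or chosen after their values were seen. The genes and lists were chosen with earlier results of these data known. A further gene of this pathway is not reported here. Promoters are from RefSeq on GRCm38.p6 and gene positions from GENCODE vM21. The limma fit was tested on simulated reads with known changes, which does not cover the other tests. Alternatives covered the variance model, pseudocount, filter, normalization, voom on the recovered reads, library weights, odd and even replicate numbers, a replicate block, and leaving out each library. Same-numbered libraries deviated together weakly at most (correlations −0.051 to 0.27), and the numbers were not used as pairs in the main fit. These correlations do not show that the libraries were unpaired.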

Additional observations from a re-analysis of the deposited data

Results flagged for a closer look

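Within a group of 6 libraries, a single library stood far from the other 5 in 5 of 30 groups of values tested by Dixon's criterion, which chance alone passes in about 1 in 20 groups, or 1.5 of 30. Of these, 3 are the same library and rest on the same gene. *Insig1* in thymol replicate 2 was 2.82 log2 CPM, where the other 5 thymol libraries were at 3.71 to 4.07. In that library *Insig1* minus *Insig2* was −2.80 (the others −1.42 to −0.92), and *Scap* minus *Insig1* was 3.33 (the others 1.58 to 2.20). The call of *Insig1* and that of *Scap* relative to *Insig1* were lost without this library, with values of −0.47 and 0.38.

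*Npc1* in DMSO replicate 5 was 6.72 log2 CPM, where the other 5 DMSO libraries were at 7.01 to 7.11, and without it the *Npc1* change was −0.0088. The read total of thymol replicate 5 was 9049796, where the other thymol libraries held 5435985 to 6585162 reads, and *Insig1* passed the threshold without that library.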

How the results depend on the processing

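*Insig1* was lower under all 23 alternatives (limma log2 fold change −0.78 to −0.39), but its call was not stable. The number of the 9 genes past the threshold was 0 without the mean-variance trend, 0 with the odd-numbered libraries alone and 0 with the even-numbered ones (3 against 3), where *Insig1* had adjusted p-values of 0.157, 0.440 and 0.148, and 0 to 2 with 1 library left out. The second gene was *Srebf2*, at −0.30 (adjusted p = 0.043) without thymol replicate 4. The calls over all genes fell from 238 to 57 without the trend and 70 with the odd-numbered libraries, and ranged from 172 to 270 with 1 library left out. The cause was not tested.

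Whether the replicate numbers pair the libraries was not given, and 2 of 6 thymol libraries correlated best with their own number. A fit with a replicate block called 332 genes and 1 of the 9, *Insig1* (adjusted p = 0.018). For pairs of genes the replicate block, a sign flip of 6 differences, called 0 of 5 (adjusted p = 0.156 for both pairs with *Insig1*, over 64 flips). With so few flips the pairs with *Insig1* could not have passed on their own after adjustment over 5 pairs. This count of 0 therefore does not decide whether they changed. The number of pairs past the threshold was 1 with a pseudocount of 10 CPM and 0 to 3 with 1 library left out. *Insig1* minus *Insig2* stayed past it in 7 of 12 of these (−0.96 to −0.58) and *Scap* minus *Insig1* in 6 (0.38 to 0.73).

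Small values changed sign: *Npc1* to −0.021 with even-numbered libraries and −0.0088 to 0.070 with 1 left out, *Scap* to 0.016 without thymol replicate 5 (−0.094 to 0.016), *Srebf1* minus *Srebf2* to 0.043 with the pseudocount (−0.15 to 0.090 with 1 left out), and *Npc1* minus *Npc2* (−0.036 to 0.047). *Insig1* rested on 40 to 180 reads a library, on average the fewest of the 9 genes.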

Other observations

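Some pairs of the 9 genes varied together within the groups by Pearson's r, and 0 of 36 passed by Spearman's rho (lowest adjusted p = 0.094). Of the 36 pairs of genes, compared after each group mean was subtracted, the strongest relation was between *Insig2* and *Mbtps1*, with Pearson's r = −0.87 (permutation within groups, p = 0.00055, adjusted p = 0.0198 over 36 pairs) and Spearman's rho = −0.81 (p = 0.00381, adjusted p = 0.094) over 12 libraries. It was −0.84 within DMSO and −0.90 within thymol, and −0.68 without the 2 libraries farthest from the median of *Insig2*, thymol replicate 2 and DMSO replicate 6. *Scap* and *Npc1* were the only other pair past the threshold by Pearson's r, at 0.52 (adjusted p = 0.0346, and rho = 0.71 with an adjusted p of 0.094). The r of this pair was 0.70 within DMSO and 0.89 within thymol. It was 0.47 without the 2 libraries farthest from the median of *Scap*, thymol replicates 5 and 2. DMSO replicate 5, the lowest DMSO library in both genes, was kept there. *Scap* and *Stard4* had rho = −0.77 (adjusted p = 0.094) and r = −0.60 (adjusted p = 0.416), and r was −0.83 without thymol replicates 5 and 2.

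Some libraries were at the edge of their group more often than others. DMSO replicate 6 held the highest or the lowest value of its group in 6 of the 9 genes and thymol replicate 2 in 5, where an even spread would give 3 per library. In thymol replicate 2 *Srebf1*, *Scap* and *Insig2* were highest and *Insig1* and *Mbtps1* lowest of the thymol libraries, and in DMSO replicate 6 *Srebf2*, *Scap* and *Insig2* were highest and *Srebf1*, *Mbtps1* and *Stard4* lowest of the DMSO libraries.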
